A study of Mus musculus with 2 samples.

Results

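The 10 scavenger receptor genes Cd163, Msr1, Marco, Cd36, Scarb1, Scarb2, Stab1, Stab2, Cd68 and Colec12 were followed in cells of healing mouse skin. They were chosen by name, with earlier results of these data known. Each had 1 probe set that named it alone, and they stood among 19938 genes measured in this way. Total RNA of cells from skin scar tissue of TCF reporter mice was hybridised to Affymetrix Mouse Gene ST arrays 1 week after wounding. One group was labelled B-Gal negative and the other B-Gal positive, read here as lacking or having beta-galactosidase, and both shared genotype, tissue and time. The reporter is read here as a transgene switched on by TCF transcription factors, which act with beta-catenin in the nucleus. The age and number of the mice, the promoter of the reporter and the way in which positive and negative cells were told apart were not given in the sources used here. Per the series' design text, wound skin was microdissected and homogenised before RNA extraction, and how this relates to separate cell groups was not given either, so "cells" below follows the labels. Each group had 1 array, so no difference has an error, a replicate check or a p-value, and every value describes these arrays.

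Scavenger receptors are membrane proteins, grouped by structure and not by common descent, that bind modified lipoproteins, dying cells, microbes, matrix fragments or protein complexes and bring them into the cell. Macrophages carry many of them, and in a wound they take part in clearing debris, haemoglobin and spent matrix. Some are also found outside macrophages, on endothelium, adipocytes and stromal cells.

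In the B-Gal positive array 5 of the 10 receptors were many-fold higher than in the B-Gal negative array. They were Cd163, Stab1, Cd36, Msr1 and Cd68, with folds from 9.77 for Cd68 to at least 30.9 for Cd163. Scarb2 and Scarb1 were 2.33-fold and 2.25-fold higher. Colec12 was 6.02-fold lower. Marco and Stab2 lay close to the background of the arrays in both groups. Higher values in the B-Gal positive array were found for 9 members, as for 53.9% of the 13786 expressed genes. In all, 7 members were at least 2-fold higher, a threshold that 9.92% of expressed genes passed in this direction, and 1 member was at least 2-fold lower, as were 12.7% of expressed genes. At least 4-fold higher values were found for 5 members, against 3.01% of expressed genes. The median difference of the members, B-Gal positive minus B-Gal negative, was 2.25 on the log2 scale, and that of all expressed genes was 0.06. A gene counted as expressed where 1 array or both exceeded a floor of 5.59 on the log2 scale, the 95th percentile of 1190 olfactory and vomeronasal receptor genes of little known use in skin. All 10 members were expressed by this rule, Stab2 through the B-Gal positive array alone, and so was Cd163.

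**Figure D1:**
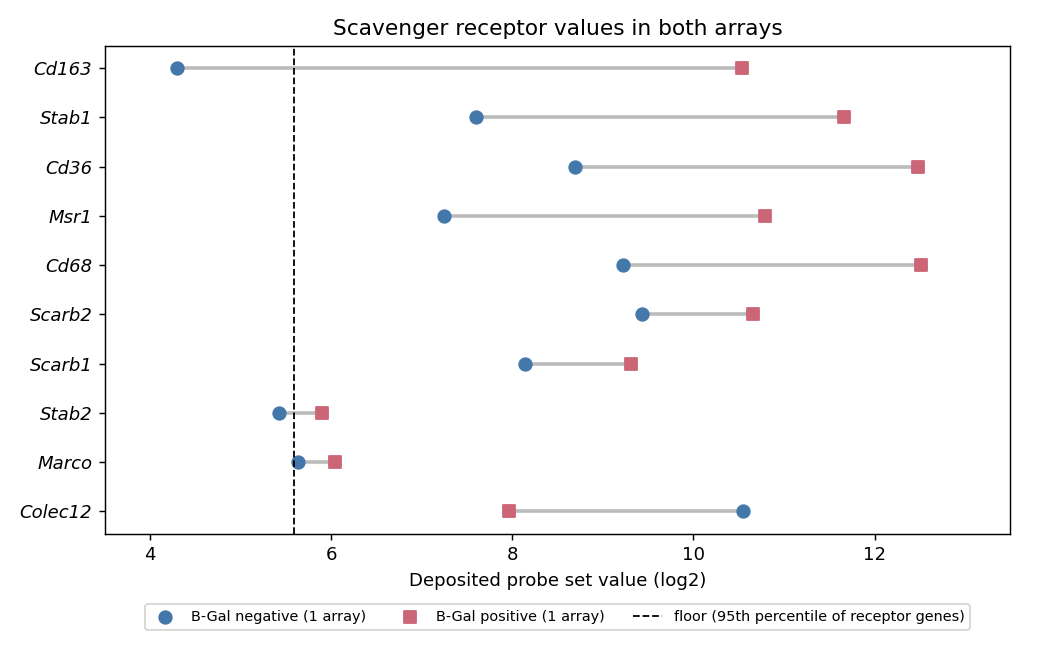
Deposited log2 value of each scavenger receptor gene (horizontal axis) in the B-Gal negative array (circles) and the B-Gal positive array (squares), 1 array per group, ordered by difference, with the floor of 5.59 dashed. The squares lie to the right for 9 genes and to the left for Colec12, and Stab2 and Marco lie beside the floor; levels of different probe sets are not comparable with each other.

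Promoter sequences are shown for the member with the largest difference on deposited values (Cd163), for the member with matches to the AP-1 motif (Cd68) and for the stabilin pair, 1 above the floor in both arrays and 1 beside it (Stab1 and Stab2). The RefSeq promoter table of the mouse assembly GRCm38.p6 matched 7 of the 10 members by symbol, with windows of 250 bases before to 50 bases after the annotated start. Msr1, Scarb1 and Colec12, the only lower member, had no window. The windows lie at chr6:124304401-124304700 on the plus strand for Cd163, at chr11:69666121-69666420 on the minus strand for Cd68, at chr14:31168592-31168891 on the minus strand for Stab1 and at chr10:87007893-87008192 on the minus strand for Stab2. Each is written 5′ to 3′ along its gene, and capitals mark GGAA and its complement TTCC, the core bound by ETS family factors such as PU.1, and TGAGTCA or TGACTCA, an AP-1 motif.
Cd163: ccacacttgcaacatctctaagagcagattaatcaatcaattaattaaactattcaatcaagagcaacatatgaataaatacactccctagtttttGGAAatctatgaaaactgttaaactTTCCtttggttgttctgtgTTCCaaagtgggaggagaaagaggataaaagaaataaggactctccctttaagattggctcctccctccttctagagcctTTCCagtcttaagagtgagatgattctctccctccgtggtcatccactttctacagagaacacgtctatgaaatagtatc
Cd68: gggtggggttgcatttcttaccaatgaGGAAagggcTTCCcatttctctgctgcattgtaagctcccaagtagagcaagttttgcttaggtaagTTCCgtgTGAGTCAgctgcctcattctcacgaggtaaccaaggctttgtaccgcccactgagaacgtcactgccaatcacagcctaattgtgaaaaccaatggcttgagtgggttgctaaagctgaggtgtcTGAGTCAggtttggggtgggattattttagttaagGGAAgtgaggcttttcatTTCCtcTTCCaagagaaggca
Stab1: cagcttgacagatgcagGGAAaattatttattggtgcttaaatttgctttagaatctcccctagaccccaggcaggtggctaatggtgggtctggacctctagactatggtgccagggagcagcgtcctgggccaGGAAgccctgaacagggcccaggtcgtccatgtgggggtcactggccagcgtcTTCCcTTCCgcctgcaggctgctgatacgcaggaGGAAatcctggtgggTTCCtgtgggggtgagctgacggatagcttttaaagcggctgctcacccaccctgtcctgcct
Stab2: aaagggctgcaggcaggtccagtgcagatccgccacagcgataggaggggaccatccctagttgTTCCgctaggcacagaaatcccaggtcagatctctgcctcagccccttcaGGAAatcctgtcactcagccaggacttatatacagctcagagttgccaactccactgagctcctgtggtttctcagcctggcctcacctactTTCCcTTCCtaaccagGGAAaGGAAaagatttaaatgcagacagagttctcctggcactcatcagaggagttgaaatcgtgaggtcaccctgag
GGAA on either strand was present in all 7 member windows, and also in 96% of 32851 promoter windows of the same length. The windows of Cd163, Stab1, Stab2 and Cd68 held 4, 6, 6 and 6 matches, and the median over all windows was 3. Marco, close to the background of the arrays, held the most of the members with 7, and 8.02% of all windows held at least as many. The AP-1 motif was present in 1 of the 7 member windows and in 5.2% of all windows. Cd68 held it at 2 places, starting at -149 and -24 from the start site, and 0.222% of all windows held as many. Neither CACGTG, searched as the E-box core (7.15% of all windows), nor TATAAA (13.6% of all windows) was found in the 7 member windows. No AP-1 match overlapped a GGAA match in Cd68. These matches describe letters in the windows and were not tested as binding sites.

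Cd163, the macrophage receptor for complexes of haemoglobin and haptoglobin, had a log2 value of 4.29 in the B-Gal negative array and of 10.54 in the B-Gal positive array. The first value lies under the floor and the second far above it. Against the floor Cd163 was at least 30.9-fold higher. Its difference of 6.24 on deposited values ranked 1 among expressed genes, and 6 when values under the floor were raised to it. Genes of haemoglobin and heme handling, the pathway that CD163 feeds, were mostly on the same side. Of 13 expressed genes on that list 8 were higher by 2-fold or more and 1 was lower by as much, and the median difference was 1.31. For this list and those below, the shares of all expressed genes at 2-fold were 9.92% higher and 12.7% lower. Hmox1, which encodes the inducible heme oxygenase, was 4.65-fold higher, and the biliverdin reductase genes Blvra and Blvrb were 4.26-fold and 3.20-fold higher. Slc48a1, a heme transporter gene, was 3.22-fold higher. The 1 lower gene was Hp, which encodes the ligand haptoglobin, with log2 values of 9.95 in the B-Gal negative and 8.52 in the B-Gal positive array; like the next gene it was named after its values were seen. Adam17, which encodes a protease that sheds CD163 from the surface, was 2.28-fold higher.

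The 2 stabilin genes encode large receptors with many EGF-like and fasciclin domains. Stab1, found on alternatively activated macrophages and sinusoidal endothelium and known for uptake of the matrix protein SPARC, had log2 values of 7.60 in the B-Gal negative and 11.66 in the B-Gal positive array. It was 16.7-fold higher in the latter. Stab2, the hyaluronan clearance receptor of liver, spleen and lymph node sinusoids, had log2 values of 5.43 and 5.89, one just under and one just above the floor. Against the floor the bound for Stab2 was 1.24-fold higher, and 1.14-fold with 32 added on the linear scale. Of the 1190 olfactory and vomeronasal receptor genes, 342 had a difference at least as large as its 0.47. The values of Stab2 allow no closer comparison with Stab1. Of the lymphatic and sinusoidal endothelial markers, Prox1, Mmrn1 and Clec4g were at or under the floor in both arrays. Of the 6 expressed ones 2 were higher by 2-fold or more and 0 lower. These were Lyve1, a hyaluronan receptor gene (2.64-fold), and Fcgr2b, an inhibitory Fc receptor gene (10.1-fold), and macrophages are known to express both.

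The class A receptors, trimeric proteins with a collagen-like stalk, went 3 ways. Msr1, the macrophage scavenger receptor for modified low density lipoprotein, had log2 values of 7.25 in the B-Gal negative and 10.79 in the B-Gal positive array, so it was 11.7-fold higher. Marco, a receptor for bacteria and inhaled particles on subsets of macrophages, had log2 values of 5.63 and 6.04. Both lie close to the floor, and 427 of the 1190 olfactory and vomeronasal receptor genes, whose median difference was 0.28, had a difference at least as large as its 0.40. Colec12, a collectin with a C-type lectin domain known from endothelial and stromal cells, had log2 values of 10.55 in the B-Gal negative and 7.96 in the B-Gal positive array. It was the only member with a lower value in B-Gal positive cells, and there it was still above the floor. Its difference of -2.59 lay 6.14 below that of Msr1 on the log2 scale.

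The class B receptors span the membrane at both ends and share the fold of CD36. Cd36, which takes up long-chain fatty acids and oxidised lipoproteins and binds thrombospondin, had log2 values of 8.70 in the B-Gal negative and 12.48 in the B-Gal positive array. It was 13.8-fold higher in the latter. Scarb1, the receptor for high density lipoprotein, had log2 values of 8.13 and 9.30 and was 2.25-fold higher. Scarb2, a lysosomal membrane protein that carries glucocerebrosidase to lysosomes, had log2 values of 9.43 and 10.65 and was 2.33-fold higher. Scarb1 and Scarb2 differed from each other by 0.05 in their log2 differences, and lay 2.61 and 2.56 below that of Cd36. They ranked 1109 and 1047 among expressed genes by difference, while Cd36 ranked 46. Cd68, which encodes macrosialin, a heavily glycosylated late endosomal protein used as a macrophage marker, had log2 values of 9.22 and 12.51. It was 9.77-fold higher and ranked 80.

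**Figure D2:**
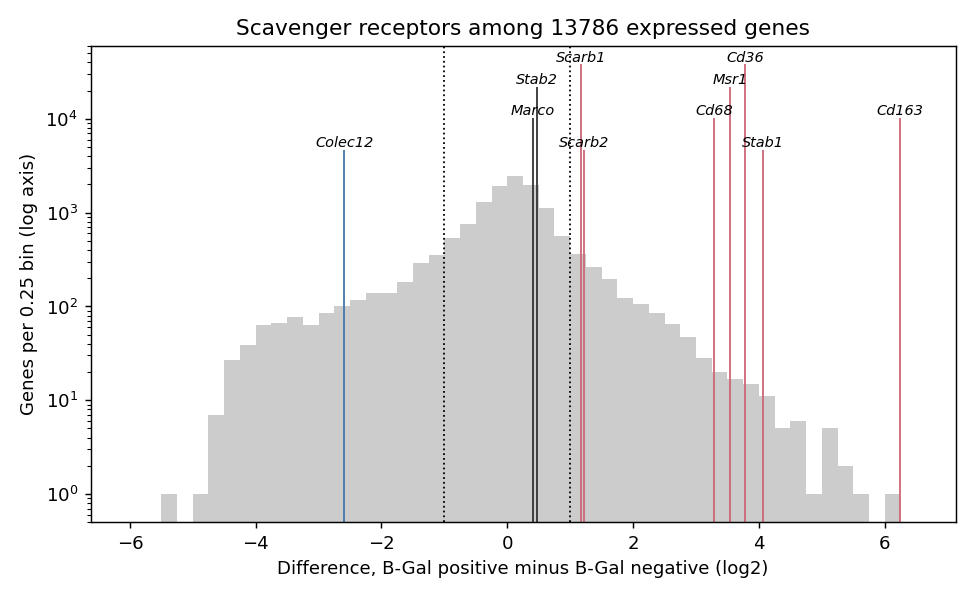
Histogram of the log2 difference, B-Gal positive minus B-Gal negative, over 13786 expressed genes (grey, log count axis), with a line for each scavenger receptor and dotted lines at 2-fold. Cd163, Stab1, Cd36, Msr1 and Cd68 lie in the thin upper end, Scarb1 and Scarb2 just past 2-fold, Marco and Stab2 in the bulk and Colec12 on the lower side.

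Other receptors counted as scavenger receptors did not share 1 direction. Of 20 expressed genes 6 were higher by 2-fold or more and 4 lower, against 9.92% and 12.7% of all expressed genes. The median difference was 0.33. The olfactory and vomeronasal receptor genes used for the floor had a median difference of 0.28. Mrc1, which encodes the mannose receptor of macrophages, had log2 values of 6.92 and 12.52 (48.5-fold higher). Cd5l, a secreted macrophage protein with the cysteine-rich domains also found in CD163, was at least 6.01-fold higher. Cxcl16, a membrane-bound chemokine that binds oxidised lipoprotein, was 6.98-fold higher. Scara3, a class A relative, had log2 values of 9.16 and 5.87 and was 9.78-fold lower. The other 3 lower genes were Scara5 (5.08-fold), Scarf2 (5.89-fold) and Ssc5d (4.05-fold), named after their values were seen.

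Genes that handle the lipid cargo of CD36, SR-A and SR-BI were higher by 2-fold or more for 10 of 13 expressed genes and lower for 1, and their median difference was 2.09. Apoe, which encodes the apolipoprotein that macrophages release with cholesterol, was 9.10-fold higher. Pltp, a phospholipid transfer protein gene, was 7.18-fold higher and the cholesterol exporter gene Abca1 was 5.72-fold higher. The lower gene was Vldlr, a lipoprotein receptor gene, at 8.63-fold. Fabp4, a fatty acid binding protein gene of adipocytes and macrophages named after its values were seen, had log2 values of 8.41 and 7.97. Pdzk1, which encodes an adaptor of SR-BI in liver, was under the floor in both arrays.

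Partners through which these receptors signal were higher by 2-fold or more for 11 of 16 expressed genes and lower for 1, and their median difference was 1.81. Mertk, a receptor tyrosine kinase for dying cells, was 8.45-fold higher and the exchange factor gene Vav1 7.42-fold higher. The integrin genes Itgam and Itgb2, whose products pair as a complement receptor, were 6.52-fold and 6.27-fold higher. The lower gene was the tetraspanin gene Cd81 (4.22-fold), and Fyn, which encodes a kinase bound by CD36, had a difference of -0.97; both were named after their values were seen.

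Ligand genes lay mainly on the other side. Of 13 expressed ligand and hyaluronan synthase genes 10 were lower by 2-fold or more and 1 was higher, and the median difference was -2.04. Thbs2, a thrombospondin gene, had log2 values of 12.56 and 8.26 and was 19.6-fold lower. The hyaluronan synthase genes Has1 and Has2 were 15.4-fold and 14.3-fold lower, and Bgn, which encodes the proteoglycan biglycan, 10.9-fold lower. Sparc, which encodes the ligand cleared by stabilin-1, was 7.15-fold lower, while Thbs1, which encodes the thrombospondin best known to bind CD36, had log2 values of 11.88 and 11.97. Sparc and Thbs1 were named after their values were seen. The 1 higher gene was Apoe. Among these 13 genes Col1a1, Col1a2 and Dcn also stand in the fibroblast marker list, Apoe in the lipid list and Hp in the heme list. Other lists share genes too. Mrc1 (other receptors) and Mertk (signalling partners) are also macrophage markers. Npc1 and Npc2 stand in the lipid and lysosomal lists, and Lrp1 among the other receptors and in the heme list. The lists are therefore not separate sets of genes.

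Lysosomal and sorting partners were higher by 2-fold or more for 7 of 19 expressed genes and lower for 1, and their median difference was 0.73. The cathepsin genes Ctss and Ctsd were 5.08-fold and 4.02-fold higher, and Lgmn, a lysosomal protease gene, was 3.27-fold higher. Gulp1, which encodes an adaptor that binds stabilins, was at least 4.24-fold lower, with a value under the floor in B-Gal positive cells. Transcription factors known at scavenger receptor or lysosomal genes were higher by 2-fold or more for 10 of 17 expressed genes and lower for 0, and their median difference was 1.10. Spi1, which encodes PU.1, was 7.91-fold higher, Cebpa 4.89-fold, Irf8 3.68-fold and Nr1h3, which encodes a sterol-sensing nuclear receptor, 3.87-fold. The AP-1 genes Jun and Fos, named after their values were seen, had differences of -0.19 and 0.07.

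**Figure D3:**
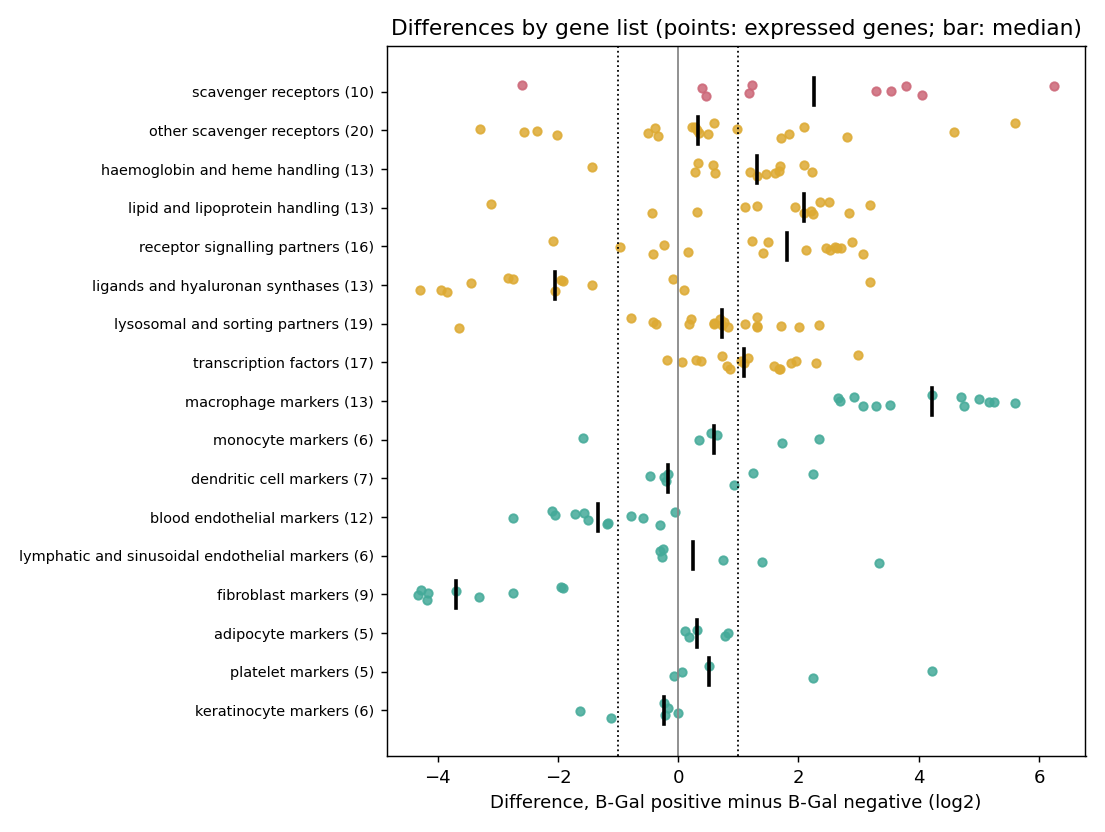
Log2 difference, B-Gal positive minus B-Gal negative (horizontal axis), of each expressed gene in the scavenger receptor set (top), 7 lists of related genes (yellow) and 9 lists of cell type markers (green), with the number of genes in brackets, the median as a bar and dotted lines at 2-fold. The scavenger receptors spread from -2.59 to 6.24, the macrophage markers lie between 2.66 and 5.60 and the fibroblast markers between -4.32 and -1.91.

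Cell type markers also differed between the arrays, in directions that varied by cell type. All 13 expressed macrophage markers exceeded 2-fold on the higher side. Their median difference was 4.22, the value of Vsig4, a macrophage complement receptor gene under the floor in the B-Gal negative array, and it was 3.52 with such values raised to the floor. The summed log2 level of all 14 with a probe set was 11.81 in the B-Gal negative and 15.55 in the B-Gal positive array. Sums here and below include list genes under the floor and depend mostly on the genes with the highest values. Timd4, a marker of some resident macrophages, was under the floor in both arrays. Of these markers 12 lay above the floor in both arrays. Taken against the floor, Cd163 differed by at least 4.95 on the log2 scale, above 8 of the 12 markers, while the differences of Mrc1 (5.60), C1qc (5.25), Folr2 (5.16) and C1qa (4.99) were larger than this bound. Stab1, Cd36 and Msr1 each exceeded 6 of the 12 and Cd68 exceeded 5. Scarb1, Scarb2, Marco and Stab2 had smaller differences than any of them. In bulk samples more cells of a type and more RNA per cell cannot be told apart, and the part of macrophage content in these differences was not tested.

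All 9 fibroblast markers exceeded 2-fold on the lower side, and their median difference was -3.70. Their summed log2 level was 15.96 in the B-Gal negative array and 13.44 in the other. Of 12 blood endothelial markers 8 were lower by 2-fold or more and 0 higher, the median difference was -1.33 and the summed log2 levels were 11.60 and 10.28. Tek, an angiopoietin receptor gene, was 6.74-fold lower. The difference of Colec12 was less negative than those of 7 of the 9 fibroblast markers and more negative than those of 11 of the 12 endothelial markers. The part of either cell type in the Colec12 difference was not tested.

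Markers of other cell types, among them some that carry CD36 or related receptors, gave mixed results. Over all expressed genes 9.92% were higher and 12.7% lower by 2-fold or more, and lists of so few genes allow no close comparison with these shares. Adipoq and Lep, defining adipocyte genes, were under the floor in both arrays, and 0 of 5 expressed adipocyte markers differed 2-fold. The summed log2 levels of all 7 adipocyte markers with a probe set, Adipoq and Lep included, were 8.45 and 8.94. Of 5 expressed platelet markers 2 were at least 2-fold higher, Pf4 (18.5-fold) and Ppbp (4.75-fold), which encode chemokines. Pf4, with log2 values of 6.93 and 11.14, was the largest part of the summed levels (8.70 and 11.51). The platelet integrin gene Itga2b had log2 values of 6.52 and 6.46, and Gp9 was at least 1.35-fold higher against the floor. Monocyte markers were higher by 2-fold or more for 2 of 6 expressed genes and lower for 1 (summed levels 12.28 and 12.99), among them the chemokine receptor gene Ccr2 (5.05-fold higher) and Plac8 (2.99-fold lower). Chil3, the other gene counted higher, was at least 1.61-fold higher against the floor. Dendritic cell markers were higher by 2-fold or more for 2 of 7 and lower for 0 (11.02 and 12.08). Their median difference was -0.18, or -0.06 with values raised to the floor. Over the 6 that passed a stricter floor of 6.27 it was 0.38, so its sign depended on the floor. Itgax, an integrin gene shared with macrophages, was 4.75-fold higher, H2-Ab1 was 2.38-fold and Cd209a 1.91-fold higher. The dendritic cell genes Flt3, Zbtb46 and Ccr7, named after their values were seen, had differences of -0.24, -0.21 and -0.18. Xcr1, also a dendritic cell gene, had log2 values of 5.64, just above the floor, and 5.18, under it. Against the floor it was at least 1.04-fold lower in the B-Gal positive array. Clec9a was under the floor in both arrays. Of 6 expressed keratinocyte markers 2 were lower by 2-fold or more and 0 higher (9.18 and 8.60), and Krt5, a basal keratinocyte gene, was under the floor in B-Gal positive cells. The summed level of the 9 lymphatic and sinusoidal endothelial markers with a probe set was 11.48 in the B-Gal negative and 12.39 in the B-Gal positive array. Its largest parts were Pdpn (11.10 and 10.84), named after its values were seen, and Fcgr2b (8.19 and 11.53), which macrophages also express. Of the 9 markers, 3 lay at or under the floor in the B-Gal negative and 5 in the B-Gal positive array. What the cell types of this paragraph contributed to the receptor values was not tested.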

How the data were processed

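The authors deposited 1 value per probe set and array for 28853 probe sets, used here as log2 expression values. The scale was inferred from their range (1.16 to 14.8), and folds depend on it. Partek is the software named, per the submitters' processing notes. Background correction, summarization and normalization were not given in the sources used here. Array medians were 6.18 (B-Gal negative) and 6.16 (B-Gal positive), and no scaling was added.

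The platform annotation paired 21789 probe sets with 1 gene, 1621 with several and listed 5443 not at all. Symbols were checked by gene ID in a RefSeq table (21698 matched, 0 changed). For the 999 genes with several single-gene probe sets, that with the highest mean over the arrays was taken. Folds with 1 array at or under the floor were computed against it and are lower limits.

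The members and the 16 gene lists were chosen with earlier results of these data known. Named genes were the members, plus up to 4 expressed genes per list with the largest absolute difference, not all printed; other names are marked so, or are list genes given for a value under the floor or membership of 2 lists. No test was possible with 1 array per group, and arrays this few limit precision. The counting code was run on simulated data with shifts set in advance, which says nothing about the noise of these arrays. Alternatives changed scaling, offset, floor, probe set choice and fold threshold. Protein comparisons were planned and not run, since no protein table was used here. Python 3.11.15, pandas 2.3.3 and statsmodels 0.14.6 were used.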

Additional observations from a re-analysis of the deposited data

How the results depend on the processing

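Each of the 10 members kept its direction and its side of the 2-fold threshold on deposited, centred, loess-corrected, quantile-normalized and offset values, without the filter, with the mean over probe sets and with values raised to the floor. Under a stricter floor 8 members were counted, on the same sides. Between 5 and 7 members were counted higher over 10 alternatives, the 5 at a 4-fold threshold, and 1 was counted lower in each. The member median ran from 2.20 to 3.42, the latter with that stricter floor of 6.27 (99th percentile of the receptor genes), which left out Marco and Stab2. With that floor Cd163 was at least 19.2-fold higher, and with 32 added on the linear scale at least 19.0-fold, with rank 3. The loess fit moved the median of expressed genes by -0.10. The macrophage marker median ran from 3.42 with the offset to 4.24 with centring.

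Some list counts moved by over 1.5 times. Of all expressed genes 18.8% were higher and 20.1% lower at 1.5-fold, and 3.01% and 5.72% at 4-fold. At 1.5-fold, 13 of 19 lysosomal and sorting genes were higher and 2 lower. There 2 of 16 signalling partners were lower and 2 of 5 adipocyte markers higher. At 4-fold, 2 of 13 heme handling genes were higher and 0 lower. Higher too were 2 of 19 lysosomal genes and 2 of 17 transcription factors. Of the markers, 1 of 6 monocyte, 1 of 7 dendritic cell and 1 of 6 lymphatic or sinusoidal genes were higher. Lower at 4-fold were 0 of 6 monocyte, 3 of 12 blood endothelial and 0 of 6 keratinocyte markers. After loess or quantile normalization 2 of 16 signalling partners were lower, against 13.8% and 12.8% of expressed genes. With the offset 1 of 6 monocyte markers was higher and 1 of 6 keratinocyte markers lower, against 8.18% and 9.97% of expressed genes. With values raised to the floor 1 of 6 monocyte markers was higher, against 9.55%. Without the filter 1 of 9 lymphatic or sinusoidal markers was lower, against 9.63%. Fewer or more genes passing the threshold or filter follow from these settings; for the scalings the cause was not tested. No paired analysis was possible because each group had 1 array.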

Other observations

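The values of 614 of the 28853 probe sets were identical in both arrays to the deposited decimals, among them those of Cdh1, the epithelial cadherin gene (6.19), and of the keratin gene Krt1 (5.15, under the floor). None of the 10 scavenger receptor probe sets was among them.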
